A study of Mus musculus with 16 samples.

Results

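Macrophages of the pleural cavity, the fluid-filled space around the lungs, were compared with macrophages of the peritoneal cavity, the space around the abdominal organs. The comparison rests on 8 of the 16 RNA sequencing libraries of the study, 4 pleural and 4 peritoneal, numbered 2 to 5 in each group. A gene was compared when its RPKM (a read number divided by transcript length and by the size of the library) was 1 or more in at least 4 of these 8 libraries, which held for 10542 of the 24981 genes measured. Another 135 genes reached this level in exactly 3 libraries and were not tested, while 154 tested genes reached it in exactly 4. Both groups were C57BL/6 mice, 8 weeks old and with no treatment named in the labels, whose cells were collected by lavage and sorted by flow cytometry. The remaining 8 libraries, 4 of pericardial cavity macrophages and 4 of heart macrophages from mice of the same strain and age, are given beside the results as levels. The sources used here do not give the gates of the sort. Whether each library came from its own animal or from a pool is not stated, so the p-values cover the spread among the libraries, which may be technical.

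Most resident macrophages of the pleural and peritoneal cavities are large cavity macrophages. They depend on the transcription factor GATA6, carry F4/80 (encoded by Adgre1) and ICAM2, and renew themselves largely without monocytes. A less numerous population, the small cavity macrophages, is replenished from blood monocytes and expresses CCR2, IRF4 and MHC class II. Cavity macrophages take up dying cells, bacteria and modified lipoproteins through scavenger receptors, and arginase 1, an enzyme that splits arginine into ornithine and urea, is a widely used marker of alternative activation.

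Depth did not separate the groups. Alignments ran from 41709634 to 61340862 in pleural and from 41495264 to 56306606 in peritoneal libraries. The summed RPKM of all genes was 366880 to 423288 in pleural libraries and 272981 to 433448 in peritoneal ones, with the lowest value in peritoneal library 4. That library stood apart: the first principal component, 52.5% of the variance, placed it at 43.8 and peritoneal library 3 at -36.5, with the pleural libraries between -7.74 and 11.1. The second component, 23.3% of the variance, placed all pleural libraries between 10.9 and 19.5 and all peritoneal libraries between -19.4 and -7.42. Results below are on the scale of the deposited RPKM values. Many counts depend on peritoneal library 4 or on the scaling of libraries, and the other count is given beside some of them.

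Both groups carried the markers of large cavity macrophages at high levels. All 35 listed large cavity genes passed the expression threshold. Gata6 stood at 33.9, 32.2, 37.2 and 33.1 RPKM in pleural libraries 2 to 5 and at 41.8, 49.1, 28.8 and 44.3 RPKM in the peritoneal ones. The groups overlapped, and the difference was not called (limma log2 fold -0.24 ± 0.19 SE, adjusted p = 0.74); without peritoneal library 4 it was (-0.40, adjusted p = 0.043). Here and below a log2 fold is pleural minus peritoneal on the log2(RPKM + 0.5) scale, which understates the change of low genes, and a gene is called at an adjusted p under 0.05. Adgre1 was at 443 ± 65.8 RPKM in pleural and 536 ± 108 RPKM in peritoneal libraries (SD, n = 4 each). The adhesion molecule Icam2 was at 497 ± 50.2 and 374 ± 82.6 RPKM, and the phosphatidylserine receptor Timd4 at 148 ± 41.7 and 147 ± 10.1 RPKM, none of them called on the deposited scale. The lipoxygenase Alox15, at 2173 ± 266 and 2024 ± 403 RPKM, and the protease inhibitor Serpinb2, at 281 ± 25.2 and 326 ± 64.4 RPKM, overlapped between the groups as well. Lyz2, which encodes lysozyme, was at 32797 ± 3814 and 25881 ± 5661 RPKM.

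Across all genes, limma called 79 of 10542, or 0.749%. Of these, 32 (0.304%) were higher in pleural and 47 (0.446%) higher in peritoneal macrophages. The absolute log2 fold was 1 or more for 50 of the called genes and 2 or more for 7. In 76 of the 79 the groups did not overlap, which held for 3.61% of all genes tested (1.6% with pleural above and 2.01% with peritoneal above). Without peritoneal library 4, 1336 genes were called (12.7%), 134 of them higher in pleural (1.27%) and 1202 higher in peritoneal macrophages (11.4%), and without peritoneal library 3, 188 were (119 and 69). Scaling the libraries to median ratios gave 888 calls (8.42%), 358 higher in pleural (3.4%) and 530 higher in peritoneal cells (5.03%). An equal RPKM total gave 1393 (13.2%), of which 1201 (11.4% of genes tested) were higher in peritoneal and the rest (1.82% of genes tested) higher in pleural cells, and moved the median log2 fold of all genes from -0.00 to -0.11. All 79 genes kept their direction under every alternative that tested them. Whichever 1 library was left out, 52 of the 79 were called. Only 17 were called in every setting that tested the gene. With no filter on low values 17 of the 79 calls were kept. Calls lost there included Vsig4 (limma adjusted p = 0.151), Il1a (0.210), Lpl (0.441), Ccr2 (0.358) and Batf3 (0.151). For 10 of the 79, 4 higher in peritoneal and 6 higher in pleural cells, all 4 libraries of the lower group were under 1 RPKM, so they passed the expression threshold only through the group where they were high.

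**Figure D1:**
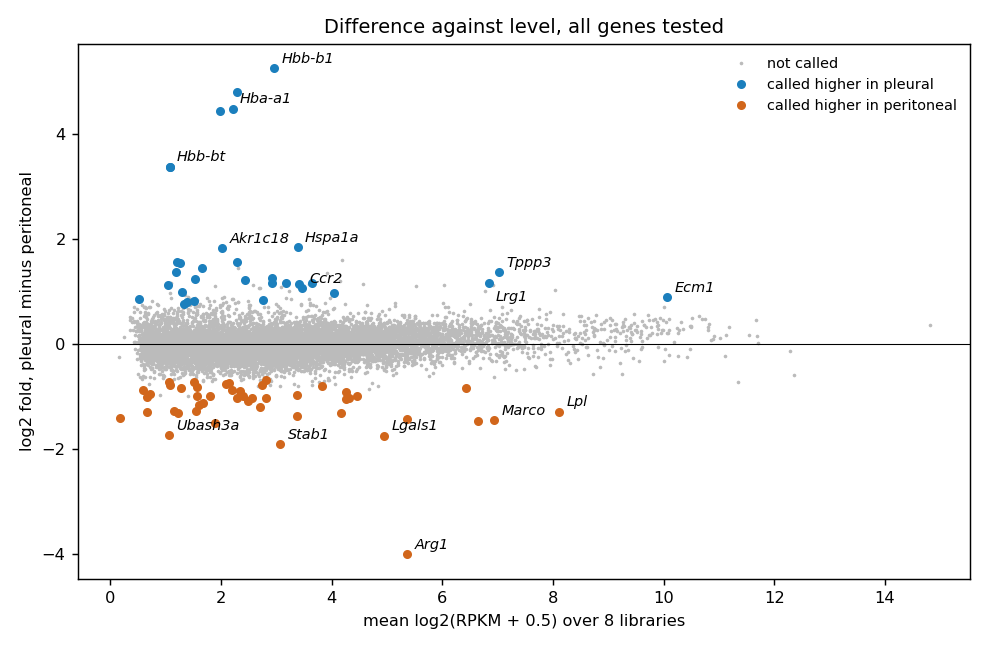
Log2 fold, pleural minus peritoneal (vertical axis), against the mean log2(RPKM + 0.5) over the 8 libraries (horizontal axis) for the 10542 genes tested. Grey points were not called, blue points were called higher in pleural (32) and orange points higher in peritoneal macrophages (47); the globin genes lie highest and Arg1, at -4.01, lies lowest.

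Arg1, which encodes arginase 1, had the largest fold toward peritoneal macrophages. It measured 8.60, 9.92, 12.5 and 8.52 RPKM in pleural libraries 2 to 5 and 172, 194, 163 and 138 RPKM in peritoneal libraries 2 to 5. The groups were far apart, with means 16.9-fold apart, and no library of one group approached the other. limma gave a log2 fold of -4.01 ± 0.19 (SE, adjusted p = 1.04e-11), and Arg1 was called under every alternative. Pericardial libraries, at 12.7 ± 4.40 RPKM, lay near the pleural level, and heart libraries were at 0.210 ± 0.0812 RPKM. The data are from bulk samples, in which fewer cells that express a gene and less RNA per cell cannot be told apart. The gene lies on chromosome 10 (GRCm38, 24915207 to 24927470).

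The rest of arginine and polyamine metabolism moved little. Of 23 listed genes 19 were tested, and 2 were called, both higher in peritoneal cells, with a list median of 0.05 against -0.00 over all genes. The second was Slc7a2, a transporter that brings arginine into the cell. It was at 10.3, 9.11, 11.98 and 10.02 RPKM in pleural and 18.9, 19.5, 15.1 and 20.3 RPKM in peritoneal libraries (log2 fold -0.80 ± 0.17, limma adjusted p = 0.0239). The groups did not overlap, yet the limma call was lost without peritoneal library 2 or 5 or pleural library 2, 3 or 5, with adjusted p up to 0.149. A related carrier, Slc7a1, stood at 2.40 ± 0.148 and 3.48 ± 0.721 RPKM and was not called (limma adjusted p = 0.402; 0.015 without peritoneal library 4). Ornithine decarboxylase (Odc1), which takes ornithine into polyamine synthesis, was at 17.9 ± 1.87 RPKM in pleural and 17.6 ± 4.12 RPKM in peritoneal libraries. The other arginase gene, Arg2, reached at most 0.108 RPKM and was not tested. On the median-ratio scale 4 genes of the list were higher in peritoneal cells, Aldh18a1 and Slc7a1 being the additional ones.

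Scavenger and phagocytic receptors contributed 4 calls among 22 tested, 0 higher in pleural and 4 higher in peritoneal cells, with a median of -0.16. Marco, a class A scavenger receptor for bacteria and particles, measured 76.8, 77.4, 76.8 and 64.0 RPKM in pleural and 279.6, 191.9, 172 and 183 RPKM in peritoneal libraries (log2 fold -1.46 ± 0.20, limma adjusted p = 0.000231). Even the lowest peritoneal library was above every pleural one. Stab1, which encodes stabilin 1, a scavenger receptor for modified lipoproteins, measured 3.43, 4.20, 4.39 and 3.44 RPKM in pleural and 17.02, 12.3, 14.4 and 21.1 RPKM in peritoneal libraries (-1.92 ± 0.18, limma adjusted p = 7.66e-07). Vsig4, the complement receptor CRIg, which binds particles coated with C3 fragments, was at 65.3, 38.0, 90.3 and 58.0 RPKM against 161, 186, 153 and 169 RPKM (-1.47 ± 0.23, limma adjusted p = 0.000852). Pleural libraries varied among themselves for Vsig4, and still none reached a peritoneal value. Lrp1, an endocytic receptor for lipoproteins and dying cells, rose from 64.1 ± 6.01 RPKM in pleural to 116 ± 19.6 RPKM in peritoneal cells (-0.84 ± 0.19). Its limma adjusted p of 0.0409 rose to as much as 0.281 when peritoneal library 2 or 5 or any 1 pleural library was left out. Msr1, the class A receptor related to Marco, was at 172 ± 8.92 and 208 ± 42.2 RPKM and was not called, although the median-ratio scale called it (limma adjusted p = 0.0461).

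The promoters of the 3 receptors whose peritoneal excess was largest in this list are shown as the 250 bases before the annotated start, from RefSeq (GRCm38.p6), because these genes rose together in peritoneal cells. Capitals mark matches to the motifs searched on both strands, which were GAGGAA (the core bound by the macrophage factor PU.1), the CCAAT box, the TATAAA box, AGATAA (bound by GATA factors), TGANTCA (bound by AP-1) and CCACACCC. Marco lies on the minus strand at chr1:120505025-120505274, Stab1 on the minus strand at chr14:31168642-31168891 and Vsig4 on the minus strand at chrX:96293439-96293688.
Marco: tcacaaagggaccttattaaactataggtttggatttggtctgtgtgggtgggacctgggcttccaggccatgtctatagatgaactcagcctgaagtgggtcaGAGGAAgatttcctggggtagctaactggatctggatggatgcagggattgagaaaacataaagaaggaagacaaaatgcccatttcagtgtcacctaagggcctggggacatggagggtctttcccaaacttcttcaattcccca
Stab1: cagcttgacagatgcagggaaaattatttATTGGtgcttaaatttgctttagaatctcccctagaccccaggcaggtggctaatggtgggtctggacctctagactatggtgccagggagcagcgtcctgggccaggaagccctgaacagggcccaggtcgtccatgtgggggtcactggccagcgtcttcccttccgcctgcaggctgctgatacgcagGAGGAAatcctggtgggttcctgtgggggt
Vsig4: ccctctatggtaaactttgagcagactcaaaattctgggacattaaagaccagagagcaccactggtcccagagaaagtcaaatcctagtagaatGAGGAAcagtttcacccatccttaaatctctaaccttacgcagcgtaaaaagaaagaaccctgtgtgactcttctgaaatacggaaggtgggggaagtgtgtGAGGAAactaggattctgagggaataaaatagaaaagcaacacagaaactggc
The GAGGAA core occurred 146 bases before the start of Marco, 30 before that of Stab1, and 155 and 53 before that of Vsig4. It occurred in 23.3% of 32851 windows of the same length in the reference table. The windows of Adam8, Hspa1a and Ecm1 were searched as well and are not shown. Adam8, also called higher in peritoneal cells (log2 fold -1.43), had no GAGGAA match, only CCAAT 211 and 17 bases before its start. Hspa1a and Ecm1, called higher in pleural cells, had no GAGGAA match either. AGATAA, a sequence bound by GATA factors, had no match in the Marco, Stab1 and Vsig4 windows, against 9.99% of all windows. Variants of it were not searched. CCAAT matched once on the reverse strand of Stab1 and was found in 33.8% of all windows.

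Siglec1 (CD169), which binds sialic acid, was at 1.29, 3.92, 1.28 and 1.18 RPKM in pleural and 4.87, 11.95, 4.23 and 4.43 RPKM in peritoneal libraries (-1.51 ± 0.29, limma adjusted p = 0.00814). Library 3 was the highest of each group. Lyve1, a hyaluronan receptor, was at 10.8, 5.61, 5.73 and 3.57 RPKM against 31.2, 11.1, 11.6 and 17.2 RPKM (-1.37 ± 0.29, limma adjusted p = 0.0172), so the highest pleural and lowest peritoneal values almost met. The Lyve1 call was lost in fits over all 16 libraries (limma adjusted p = 0.0942), over the 12 cavity libraries (0.111) and after quantile normalization (0.0538), and the Siglec1 call over the 12 cavity libraries (0.054). Siglec1 and Lyve1 also reached high levels in heart macrophages, at 16.5 ± 4.66 and 214 ± 41.7 RPKM. The lectin receptor Clec1b (CLEC-2) rose from 0.974 ± 0.494 to 3.06 ± 0.888 RPKM in peritoneal cells (-1.29 ± 0.22, limma adjusted p = 0.00291). Clec2i was called as well (-0.79 ± 0.19, limma adjusted p = 0.0493) but lost without peritoneal library 2 or 5 or pleural library 3 or 4, with adjusted p up to 0.232. These were the 2 calls among 19 lectin receptors, and the 17 others spread on both sides of a median of 0.08. Cd200r4, of the CD200 receptor family, was at 2.04 ± 0.559 and 4.44 ± 0.345 RPKM (-0.99 ± 0.18, limma adjusted p = 0.00446). Cd93, a membrane protein of myeloid and endothelial cells, was at 13.3 ± 3.82 and 27.4 ± 5.14 RPKM (-1.05 ± 0.21, limma adjusted p = 0.0123; 0.0758 without pleural library 2), the 1 call among 23 adhesion molecules.

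Galectin 1 and the protease ADAM8 followed the same direction. Lgals1, which encodes a secreted lectin for β-galactosides, measured 18.3, 12.8, 17.8 and 17.1 RPKM in pleural and 87.7, 47.9, 44.5 and 53.7 RPKM in peritoneal libraries. Its log2 fold was -1.75 ± 0.21 (limma adjusted p = 3.93e-05), and the groups were well separated. No other member of the 20 tested galectins, annexins and S100 proteins was called, and the list median was 0.21, on the pleural side. Levels of S100a4, at 425 ± 23.0 against 301 ± 80.3 RPKM, and Anxa1, at 257 ± 12.2 against 184 ± 46.7 RPKM, lay opposite to Lgals1 without a call. On the median-ratio scale 8 of the list were called higher in pleural cells, among them S100a4, S100a6, S100a10 and Anxa1, and Lgals1 alone was higher in peritoneal cells. Without peritoneal library 4 those pleural calls numbered 0. Adam8, a membrane metalloprotease that sheds surface proteins, was at 22.9, 25.2, 23.8 and 26.5 RPKM against 75.7, 72.8, 50.7 and 72.4 RPKM (-1.43 ± 0.19, limma adjusted p = 0.00012). Within the list of 21 growth factors and matrix genes Adam8 was the 1 gene called higher in peritoneal and Ecm1 the 1 called higher in pleural cells. Fibronectin (Fn1), also in this list, at 2065 ± 461 and 3394 ± 592 RPKM, did not overlap between the groups but was not called (-0.73, limma adjusted p = 0.159; 0.0242 without peritoneal library 4).

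**Figure D2:**
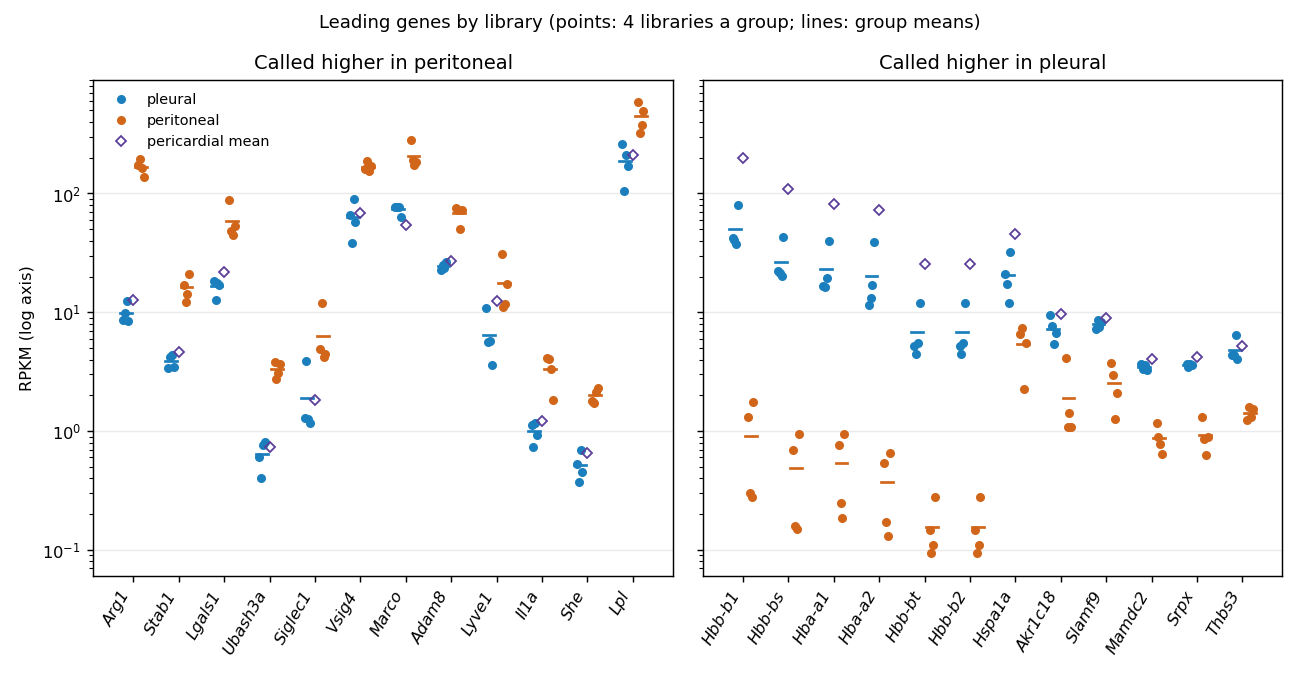
RPKM (log axis) of the 12 called genes with the largest fold in each direction and no overlap of the groups, in each pleural (blue) and peritoneal (orange) library, with lines at the group means and open diamonds at the pericardial mean. Genes whose groups overlapped were not eligible, and the pericardial diamond lies nearer to the pleural mean for all shown but Lyve1.

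Lipid handling held 5 of the 47 genes higher in peritoneal macrophages. Of 31 tested, 5 were higher there and 0 in pleural cells, with a median of -0.18. Lipoprotein lipase (Lpl), which releases fatty acids from circulating triglyceride, was at 259, 105, 211 and 172 RPKM in pleural and 585, 323, 377 and 497 RPKM in peritoneal libraries (-1.29 ± 0.26, limma adjusted p = 0.0114). Apoc1, an apolipoprotein, was at 7.43, 9.17, 21.1 and 9.79 RPKM against 22.1, 36.0, 37.7 and 20.8 RPKM (-1.32 ± 0.26, limma adjusted p = 0.011). For Apoc1 pleural library 4 lay just above peritoneal library 5, and the call was lost on the median-ratio scale (limma adjusted p = 0.0517). The lipid-sensing receptor Trem2 rose from 15.3 ± 2.85 to 31.3 ± 7.76 RPKM in peritoneal cells (-0.99 ± 0.20, limma adjusted p = 0.0138), and the cholesterol exporter Abca1 from 6.96 ± 0.903 to 14.6 ± 3.99 RPKM (-0.98 ± 0.20, limma adjusted p = 0.0144). The Trem2 call was lost without peritoneal library 5 or pleural library 3 (limma adjusted p up to 0.0593) and the Abca1 call without peritoneal library 5 (0.0626). Lrp1 completes the list. Abcg1, another sterol exporter, and the fatty acid binding protein Fabp5 had means of 5.05 and 8.02 RPKM and of 98.8 and 154 RPKM without a call, and both were called on the median-ratio scale (limma adjusted p = 0.0487 and 0.0321). On that scale 8 of the 31 were higher in peritoneal and 1 in pleural cells, and without peritoneal library 4 the numbers were 11 and 0.

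Several of these genes also mark the macrophages of the lung alveoli. The list of alveolar macrophage markers had 4 of 8 tested genes called higher in peritoneal cells, against 0.446% of all genes tested. They were Marco, Lpl, Cd200r4 and Slc7a2, and the list median was -0.71. Chil3, Fabp4, Fabp5 and Mrc1 were tested and not called. Of these Chil3 leaned the other way (log2 fold 1.35), at 9.83 to 58.3 RPKM in pleural and 5.33 to 21.8 RPKM in peritoneal libraries. The summed RPKM of the whole list, Marco and Lpl included, was 885 to 1023 in pleural and 1107 to 1774 in peritoneal libraries. The part of alveolar macrophages in these results was not tested. The other 14 of the 22 markers missed the expression threshold, among them Ear1, Fabp1, Car4 and Krt79, each at most 0.128 RPKM, and Siglecf, at most 0.229 RPKM.

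Signalling genes higher in peritoneal macrophages were few. Il1a, which encodes the alarmin cytokine IL-1α, measured 1.13, 0.735, 1.18 and 0.930 RPKM in pleural and 4.11, 4.02, 3.32 and 1.84 RPKM in peritoneal libraries (-1.32 ± 0.20, limma adjusted p = 0.000852). It was the 1 call among 31 cytokines and cytokine receptors, while the chemokine list had 0 calls among 11 (median -0.01). Tlr1, the partner of TLR2 in sensing bacterial lipopeptides, rose from 1.63 ± 0.242 to 3.75 ± 0.757 RPKM (-0.99 ± 0.17, limma adjusted p = 0.00263) and was the 1 call among 25 innate sensing receptors. Both of the next genes were under 1 RPKM in all pleural libraries and were tested only through their peritoneal level. Ubash3a, a regulator of immune receptor signalling, rose from 0.647 ± 0.181 to 3.33 ± 0.512 RPKM (-1.74 ± 0.18, limma adjusted p = 1.92e-06), and the SH2 domain adaptor She was at 0.372 to 0.699 RPKM in pleural and 1.72 to 2.32 RPKM in peritoneal libraries (-1.30 ± 0.17, limma adjusted p = 0.00012). Chosen after their values were seen, the oxygen-responsive factor Epas1 (HIF-2α) was at 3.45 ± 0.992 and 7.78 ± 1.12 RPKM (-1.09 ± 0.18, limma adjusted p = 0.00196). Ankrd37, a known target of hypoxia-inducible factors, was at 1.38 ± 0.174 and 4.22 ± 1.44 RPKM (-1.29 ± 0.19, limma adjusted p = 0.00052).

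The largest folds toward pleural macrophages belonged to haemoglobin genes. Hbb-b1, an adult β-globin, measured 42.1, 40.5, 37.6 and 80.6 RPKM in pleural and 1.31, 0.300, 0.281 and 1.77 RPKM in peritoneal libraries (log2 fold 5.25 ± 0.29, limma adjusted p = 6.95e-11). The α-globin Hba-a1 measured 16.5, 16.3, 19.5 and 40.0 RPKM against 0.764, 0.247, 0.187 and 0.941 RPKM (4.48 ± 0.26, limma adjusted p = 1.23e-10). Pleural library 5 was highest for both. Hbb-bs (4.80 ± 0.25) and Hba-a2 (4.44 ± 0.28) were called with limma adjusted p = 3.55e-11 and 4.2e-10. Hbb-bt and Hbb-b2 had identical values in each of the 8 libraries (3.37 ± 0.23), and the members of these near-identical pairs cannot be told apart by how the reads were divided, so the 6 calls are not 6 separate measurements. In heart libraries Hbb-b1 reached 213 ± 102 RPKM and in pericardial libraries 197 ± 186 RPKM.

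Other red cell genes gave a mixed picture beside the globins. Of 10 erythroid markers tested, 6 were higher in pleural cells, and those 6 were the globins. All of these but Hbb-b1 were under 1 RPKM in every peritoneal library and entered the test only through the pleural group, so the count of 6 is partly set by the threshold. The other 4 tested (Bpgm, Slc25a37, Mkrn1 and Fech) were not called and overlapped between the groups, with Fech at 8.91 to 11.45 RPKM in pleural and 7.65 to 11.48 RPKM in peritoneal libraries. The list's summed RPKM was 153 to 282 in pleural and 42.2 to 62.0 in peritoneal libraries. Alas2, the erythroid enzyme of haem synthesis, was at 0.507 to 1.20 RPKM in pleural and 0.0104 to 0.109 RPKM in peritoneal libraries, too low to be tested. Slc4a1, the red cell anion exchanger, and Hemgn reached at most 0.0314 and 0.0268 RPKM. The part of red cells in the globin result was not tested.

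The promoters of Hbb-bs and Hba-a1 are shown in the same way, because the globins led the pleural side and stand in contrast to the scavenger receptors. Hbb-bs lies on the minus strand at chr7:103827929-103828178 and Hba-a1 on the plus strand at chr11:32283422-32283671.
Hbb-bs: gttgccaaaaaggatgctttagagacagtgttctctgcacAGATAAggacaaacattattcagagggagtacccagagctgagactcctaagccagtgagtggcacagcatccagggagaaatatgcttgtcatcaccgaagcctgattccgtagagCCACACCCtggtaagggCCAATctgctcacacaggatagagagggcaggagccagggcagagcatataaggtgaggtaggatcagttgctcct
Hba-a1: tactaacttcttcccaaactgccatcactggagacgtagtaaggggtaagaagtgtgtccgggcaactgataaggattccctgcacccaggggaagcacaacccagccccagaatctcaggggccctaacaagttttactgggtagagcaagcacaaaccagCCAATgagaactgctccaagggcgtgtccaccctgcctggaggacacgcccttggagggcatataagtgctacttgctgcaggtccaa
In Hbb-bs, CCAAT began 76 bases before the start, CCACACCC 93 bases before and AGATAA 210 bases before. CCACACCC occurred in 3.2% of all windows and AGATAA in 9.99%. In Hba-a1, CCAAT began 88 bases before the start, and none of the other motifs matched as written. Its window holds TGATAA, which differs from AGATAA in the first base, was not searched and has no share computed. GAGGAA had no match in either window.

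Heat shock and immediate early genes supplied 2 calls among 29 tested, both higher in pleural cells, with a median of 0.16. Hspa1a, which encodes an inducible HSP70 chaperone, measured 21.0, 17.3, 11.9 and 32.4 RPKM in pleural and 6.62, 7.42, 2.27 and 5.51 RPKM in peritoneal libraries (1.85 ± 0.28, limma adjusted p = 0.000852). Its near-identical neighbour Hspa1b was at 40.5, 39.3, 13.2 and 44.5 RPKM against 12.5, 25.2, 3.47 and 8.61 RPKM. Pleural library 4 overlapped the peritoneal range for Hspa1b, which was not called (1.59 ± 0.40, limma adjusted p = 0.0772), and how reads were divided within the pair is not known. The AP-1 subunit Fos was at 14.1, 12.6, 13.02 and 12.3 RPKM against 5.95, 8.28, 2.57 and 7.39 RPKM (1.15 ± 0.24, limma adjusted p = 0.0167). Its relative Jun was at 10.7 ± 1.99 and 7.24 ± 2.57 RPKM without a call, and Fosb, at 0.926 ± 0.174 and 0.196 ± 0.0866 RPKM, was below the threshold for testing. Both called genes were far higher in heart macrophages, Hspa1a at 1834 ± 148 RPKM and Fos at 1855 ± 425 RPKM.

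Ecm1, which encodes extracellular matrix protein 1, was the most abundant of all called genes, at 1328, 1401, 1760.0 and 1362 RPKM in pleural and 879, 930.1, 556 and 832 RPKM in peritoneal libraries. The groups did not overlap, but the limma call was narrow (0.89 ± 0.21, adjusted p = 0.0493) and was lost without peritoneal library 5 or any 1 pleural library (up to 0.194). Lrg1, a secreted glycoprotein of the large cavity list, was at 135, 181, 236 and 149.7 RPKM against 63.2, 119, 61.3 and 72.4 RPKM (1.17 ± 0.23, limma adjusted p = 0.0122; 0.0603 without pleural library 4). Thbs3, a thrombospondin, rose from 1.42 ± 0.181 RPKM in peritoneal to 4.78 ± 1.08 RPKM in pleural cells (1.44 ± 0.17, limma adjusted p = 2.51e-05). Srpx, a sushi repeat protein, measured 3.65, 3.44, 3.70 and 3.59 RPKM in pleural and 1.31, 0.851, 0.624 and 0.894 RPKM in peritoneal libraries (1.55 ± 0.17, limma adjusted p = 8.21e-06). Mamdc2, a MAM domain protein, was equally even within the pleural group, at 3.47 ± 0.204 RPKM against 0.868 ± 0.224 RPKM (1.55 ± 0.17, limma adjusted p = 5.56e-06). Thbs3, Srpx and Mamdc2 were called in every setting that tested them.

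Among 23 eicosanoid genes 2 were called, both higher in pleural cells, with a median of 0.01 (-0.10 at an equal RPKM total). Ltb4r1, a receptor for leukotriene B4, rose from 0.916 ± 0.170 to 2.59 ± 0.593 RPKM (1.11 ± 0.18, limma adjusted p = 0.00132). Hpgd, which inactivates prostaglandins, rose from 0.574 ± 0.199 to 1.44 ± 0.296 RPKM (0.86 ± 0.18, limma adjusted p = 0.0218), a call lost without peritoneal library 5 or pleural library 2 (up to 0.107) and made on a gene that passed the threshold only through its pleural level. The steroid-converting enzyme Akr1c18 was at 9.53, 7.62, 5.39 and 6.67 RPKM in pleural and 4.09, 1.08, 1.42 and 1.08 RPKM in peritoneal libraries (1.82 ± 0.26, limma adjusted p = 0.00032), with peritoneal library 2 nearest to the pleural range.

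Small cavity macrophage, monocyte and dendritic cell genes differed in a few members only. Ccr2, the receptor that guides monocytes, was at 11.49, 13.6, 19.3 and 18.8 RPKM in pleural and 7.46, 7.79, 5.05 and 8.94 RPKM in peritoneal libraries (1.06 ± 0.20, limma adjusted p = 0.00814). No peritoneal library reached the lowest pleural value. Fcrls, a scavenger receptor of the Fc receptor-like family, rose from 3.27 ± 1.29 to 7.79 ± 1.45 RPKM in pleural cells (1.21 ± 0.23, limma adjusted p = 0.00814). Of 15 small cavity genes tested, Ccr2 and Fcrls were higher in pleural cells, Lyve1 was higher in peritoneal cells, and 12 were not called; the list median was 0.18. The monocyte list had Ccr2 as its 1 call among 12 tested, while Ly6c2 reached at most 1.01 RPKM. Batf3, a transcription factor needed by cross-presenting dendritic cells, measured 11.4, 10.8, 10.6 and 10.8 RPKM against 5.51, 5.61, 2.84 and 4.95 RPKM (1.16 ± 0.19, limma adjusted p = 0.00132). It was the 1 call among 11 dendritic cell markers tested, and Flt3, Zbtb46 and Clec9a reached at most 0.260, 0.399 and 0.241 RPKM. Of 18 such markers 5 were higher in every pleural than in any peritoneal library and 1, Irf8, the reverse. The shares over genes tested were 1.6% and 2.01%. The 5 were Batf3, Ccr7 and, too low to be tested and so not covered by these shares, Flt3, Zbtb46 and Dpp4. The part of dendritic cells in the Batf3 result was not tested. Slamf9, an immune receptor of the SLAM family, was at 7.91 ± 0.583 and 2.52 ± 1.08 RPKM (1.55 ± 0.21, limma adjusted p = 0.000172). Cd2, an adhesion receptor best known from T cells, was at 16.2, 10.9, 9.97 and 8.98 RPKM against 7.84, 6.22, 2.23 and 3.38 RPKM (1.25 ± 0.26, limma adjusted p = 0.0205; 0.0829 over the 12 cavity libraries). Cd2 was the only one of 24 T and NK cell markers in the table to be tested. The list's summed RPKM was 15.1 to 22.3 in pleural and 8.02 to 12.8 in peritoneal libraries, with Cd3e at most 0.763 RPKM. Of the 24, 4 were higher in every pleural than in any peritoneal library and 0 the reverse, against 1.6% and 2.01% of genes tested. They were Cd2 and, too low to be tested, Lck, Cd4 and Thy1. Those shares do not cover genes below the threshold, for which none was computed. Lck, for example, was at 0.373 to 0.427 RPKM in pleural and 0.0535 to 0.215 RPKM in peritoneal libraries. The part of other lymphoid cells in the Cd2 result was not tested.

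MHC class II genes gave no call on the deposited scale, but some settings made calls. The median over 13 tested was 0.37, and 0 were called, also on the median-ratio scale, at an equal RPKM total and without peritoneal library 4. H2-Aa, a class II α chain, measured 103, 382, 123 and 123 RPKM in pleural and 83.9, 249, 30.4 and 54.6 RPKM in peritoneal libraries (1.02 ± 0.44, limma adjusted p = 0.495). Its invariant chain partner Cd74 was at 284, 859.7, 273 and 289 RPKM against 204, 578, 69.9 and 136 RPKM (1.02 ± 0.44, limma adjusted p = 0.483). Library 3 was by far the highest of its group for both genes, and the groups overlapped. Without peritoneal library 3 both were called, with log2 folds of 1.58, and 4 of the list were higher in pleural cells. The same number was called among genes with a mean RPKM of 5 or more. For B cell markers the median over 13 tested was 0.60, with 0 called (1, Fcmr, on the median-ratio scale), and their summed RPKM was 57.3 to 122 in pleural and 37.4 to 89.6 in peritoneal libraries. Cd79a, the B cell receptor component, was at 17.6 ± 6.80 and 12.5 ± 7.14 RPKM.

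**Figure D3:**
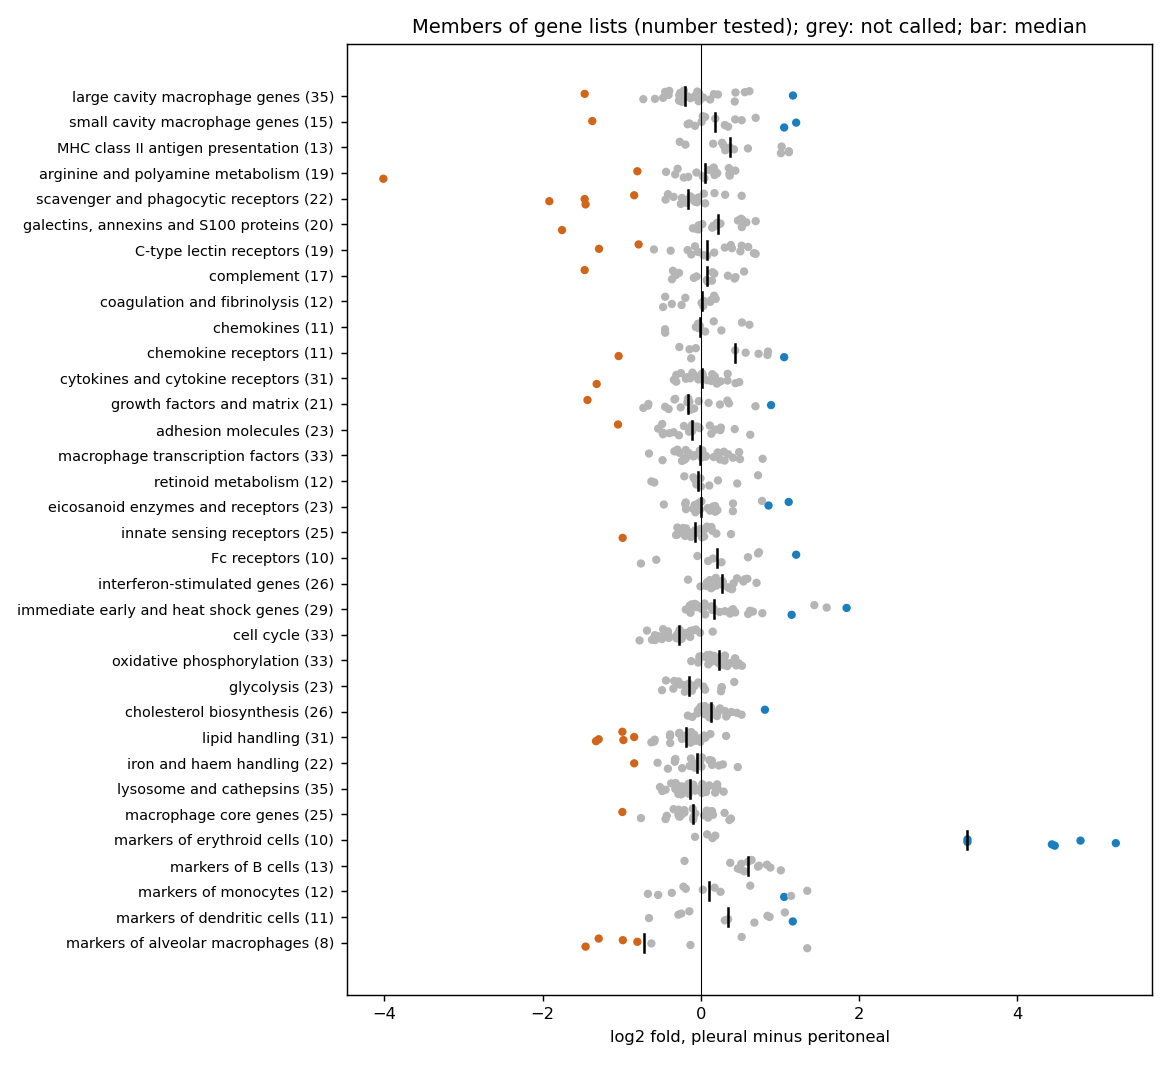
Log2 fold, pleural minus peritoneal, of each tested member of the gene lists (one row a list, number tested in brackets); blue points were called higher in pleural, orange points higher in peritoneal macrophages and grey points were not called, and black bars mark list medians. Most members lie near 0, and the erythroid list, with its globins above 3, and Arg1 at -4.01 lie farthest out.

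The general programmes of these cells showed few or no calls. Among 33 macrophage transcription factors 0 were called on the deposited scale, and the median was -0.00. On the median-ratio scale 5 of them, Cebpb included, were higher in pleural and 3 higher in peritoneal cells. Without peritoneal library 4 these counts were 1 and 5. Cebpb stood at 622 ± 68.8 and 458 ± 139.7 RPKM and Klf2 at 559.9 ± 26.8 and 437 ± 123 RPKM. Irf8, at 11.7 ± 0.624 against 19.1 ± 4.00 RPKM, did not overlap between the groups (limma adjusted p = 0.126; 0.00676 without peritoneal library 4). Macrophage core genes had 1 call, Trem2, among 25. Oxidative phosphorylation (33 tested, median 0.23), interferon-stimulated (26, median 0.27), glycolysis (23, median -0.15), lysosome (35, median -0.14) and cell cycle genes (33, median -0.28) had 0 calls each. On the median-ratio scale 4 oxidative phosphorylation genes were higher in pleural cells, and 3 cell cycle genes, Mki67, Cenpe and Rrm2, were higher in peritoneal cells; without peritoneal library 4 the counts were 0 and 10. The median-ratio scale also called 6 heat shock and immediate early genes and 5 cholesterol genes, all higher in pleural cells. It called 1 glycolysis gene higher in pleural cells, and 3 glycolysis and 3 lysosome genes higher in peritoneal cells. At an equal RPKM total 9 glycolysis and 14 lysosome genes were higher in peritoneal and 0 of either list in pleural cells. Complement had Vsig4 as its 1 call among 17, iron and haem handling had Lrp1 among 22, and coagulation and retinoid metabolism had 0 among 12 each. The median-ratio scale called 1 gene of each of the last 2 lists, Thbs1 and Fabp5, higher in peritoneal cells.

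Most markers of cells outside the cavity fluid were low in both groups, with exceptions such as Fabp4 of the adipocyte list, at 499.9 to 581 RPKM in pleural and 414 to 721 RPKM in peritoneal libraries, and Pi16 of the fibroblast list, at 27.4 to 52.0 and 33.9 to 47.7 RPKM. Under 1 RPKM in all 8 libraries were 15 of 18 measured mesothelial and 14 of 15 endothelial markers; the mesothelial genes Msln and Wt1 reached at most 0.0731 and 0.0354 RPKM. Lung epithelial markers numbered 15, of which 10 were under 1 RPKM throughout, and the surfactant gene Sftpc was detected in pleural libraries at up to 0.376 RPKM and listed at 0 in all peritoneal ones. Neutrophil (6 tested), mast cell (2), eosinophil (3), fibroblast (2), cardiomyocyte (2) and adipocyte markers (2) had 0 calls each, but most of their defining genes were too low to be tested. Of 14 mast cell markers 4 were higher in every peritoneal than in any pleural library, against 2.01% of genes tested. These 4 were themselves too low to be tested, and no share was computed for genes below the threshold. Among these mast cell protease genes, Mcpt4 was at 0 to 0.0865 RPKM in pleural and 0.470 to 4.12 RPKM in peritoneal libraries, and Tpsb2 at 0 to 0.236 and 0.654 to 4.29 RPKM. Cpa3 was at 0.0436 to 0.180 and 0.614 to 1.26 RPKM, and Cma1 at 0 to 0.388 and 0.703 to 2.497 RPKM. The summed RPKM of the mast cell list was 367 to 464 in pleural and 297 to 479 in peritoneal libraries, nearly all of it Srgn, and Tpsab1 was at 0 in all pleural libraries. Of 15 cardiomyocyte markers 6 were higher in every pleural than in any peritoneal library, against 1.6% of genes tested, and 1, Ryr2, the reverse. The 6 were also too low to be tested, so that share does not cover genes like them. Of the 6, Myl2 was at 0.143 to 0.362 RPKM in pleural and 0 to 0.0413 RPKM in peritoneal libraries, and Mb at 0.160 to 0.202 and 0 to 0.0219 RPKM. The summed RPKM of the cardiomyocyte list was 4.31 to 5.64 and 3.61 to 4.80. The part of mast cells or heart muscle RNA in the called genes was not tested. Platelet markers had Clec1b as the 1 call among 4 tested. The neutrophil receptor gene Cxcr2 varied widely, from 1.85 to 33.7 RPKM in peritoneal and from 9.16 to 18.2 RPKM in pleural libraries. Y-linked genes were present in every library, with Eif2s3y at 29.1 ± 1.70 and 28.1 ± 3.64 RPKM, and Xist did not exceed 0.0771 RPKM.

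The levels in the other 2 populations placed the called genes as follows. The pericardial mean was nearer to the pleural than to the peritoneal mean for 76 of the 79 called genes, or 96.2%, against 57.5% of all genes tested. These percentages are not like for like. Called genes were selected for a gap between the pleural and peritoneal means, and most other genes had little gap. The exceptions were Lrp1, Lyve1 and Snord12, all higher in peritoneal cells. Marco, for example, was at 54.0 ± 15.9 RPKM in pericardial libraries, Vsig4 at 68.1 ± 10.6 RPKM and Ecm1 at 1671 ± 198 RPKM, each beside the pleural value. Fos passed beyond it, at 49.9 ± 11.1 RPKM. Heart macrophages were above both cavities for 30 of the 79 called genes, below both for 40 and between them for 9. Over all 10542 genes tested these numbers were 2218, 7580 and 744, so a heart level below both was less frequent among the called genes. Adam8, at 2.20 ± 0.309 RPKM, and Marco, at 1.04 ± 0.160 RPKM, were low in the heart, whereas Stab1, at 169 ± 11.4 RPKM, and Lgals1, at 207 ± 39.6 RPKM, exceeded the peritoneal level there.

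**Figure D4:**
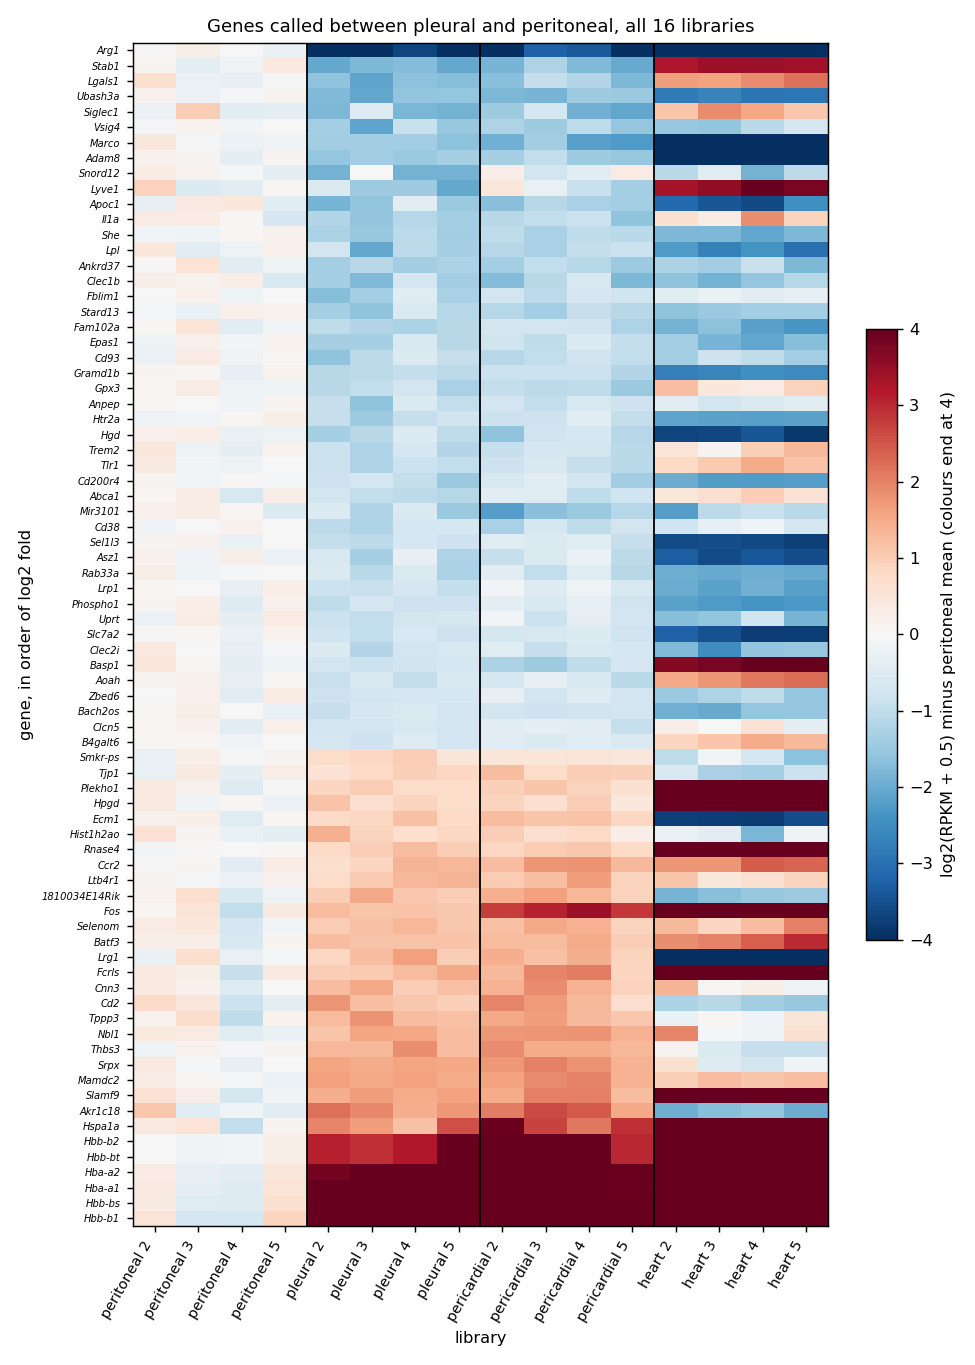
Level of 77 called genes (rows, in order of log2 fold) in all 16 libraries (columns), as log2(RPKM + 0.5) minus the peritoneal mean; red is higher and blue lower than that mean, and colours end at 4. Pericardial columns resemble the pleural ones for most rows, while heart columns often lie outside the range of both cavities.

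Transcripts of the same gene mostly moved together in the authors' deposited table, which gives group means of log2 RPKM. In the authors' deposited table the 2 transcripts of Adam8 differed between pleural and peritoneal means by -1.50 and -1.36, and the 3 of Ecm1 by 0.87, 0.97 and 0.87. The authors' deposited table gives -0.91 and -0.41 for the 2 transcripts of Slc7a2, -1.25 and -1.15 for those of Tlr1, and 1.93 and 0.13 for those of Thbs3. The 3 transcripts of Clec1b differed by -1.77, -0.68 and 0.60 in the authors' deposited table, the first having the highest peritoneal mean.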

How the data were processed

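RNA of sorted macrophages was sequenced in 16 libraries, and the 4 pleural and 4 peritoneal ones were compared. The authors deposited RPKM values per gene, computed in Partek after TopHat alignment to mm10, per the file headers. The submitters' processing notes name bcl2fastq 2.17.1, TopHat2 2.1.1 and Partek 7.18.0723. The sources used here do not give the read total behind RPKM, the annotation, strand or the treatment of multiply mapped reads. The count of alignments per library and the group means of log2 RPKM per transcript are as the authors deposited them. RPKM values are not counts, so no count model was used.

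Genes at 1 RPKM or more in at least 4 of the 8 libraries were tested with limma 3.58.1 in R 4.3.3 on log2(RPKM + 0.5), with a trended variance, 6 residual degrees of freedom before moderation and Benjamini-Hochberg adjustment over 10542 genes. Tables were made in Python 3.11.15 with pandas 2.3.3, and the fit was tested on simulated data. Symbols of 24890 of 24981 genes matched RefSeq. The text names the 12 called genes with the largest fold in each direction whose groups do not overlap, up to 4 called members of each list (or the 2 most abundant members where none is called) and a few fixed markers. Members and gene lists were chosen with earlier results of these data known. Alternatives were other pseudocounts, filters, scalings and sample sets, variance settings and leaving out each library. Promoter windows are from RefSeq, with chromosome 18 left out of the motif shares. Genes named outside this rule complete small counts or marker lists and were chosen after their values were seen. A few genes are not reported here.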

Additional observations from a re-analysis of the deposited data

Results flagged for a closer look

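A library far from the other 3 of its group was found in 23 of 186 gene groups examined, and 3 of the 23 were in peritoneal library 4. Chance gives about 1 in 20 when the groups are independent. These were not, as Hbb-bt and Hbb-b2, for example, had identical values, so the count cannot show an excess over chance. In pleural library 5 the globins Hbb-b1 (80.6 RPKM), Hbb-bs (42.9), Hba-a1 (40.0) and Hbb-bt and Hbb-b2 (both 11.98) stood above the other pleural libraries, and Marco (64.0) stood below them. In pleural library 3 H2-Aa (382 RPKM), Cd74 (859.7), Siglec1 (3.92) and Ifitm3 (1342) were high, and Siglec1 was also high in peritoneal library 3 (11.95). In pleural library 4 Ecm1 (1760.0 RPKM), Timd4 (209.8), Thbs3 (6.39), Irf8 (12.7) and Insig1 (19.9) were high, while Hspa1b (13.2) and Cxcr2 (9.16) were low. Csf3r was low in pleural library 2 (32.3 RPKM against 44.6 to 46.6). In peritoneal library 4 Adam8 (50.7 RPKM), Aldh18a1 (2.30) and Fcrls (1.36) were low. Akr1c18 was high in peritoneal library 2 (4.09 RPKM against 1.08 to 1.42).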

How the results depend on the processing

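The number of calls depended on the scale of the libraries, while none of the 79 called genes changed direction under any alternative that tested it. Of 48 named genes that were not called, 8 took the other sign in some setting (Odc1 from -0.18 to 0.16, Timd4 from -0.21 to 0.09), as did 22 of 47 list medians. Calls numbered 79, with 47 higher in peritoneal cells and 0.304% of genes tested higher in pleural cells. The same 3 values were 27, 14 and 0.057% with no filter on low values, 119, 48 and 1.06% at a mean RPKM of 5 or more, 1393, 1201 and 1.82% at an equal RPKM total, 888, 530 and 3.4% on the median-ratio scale, 605, 382 and 2.12% after quantile normalization, and 2037, 1666 and 3.52% with array weights. Leaving out 1 library gave 61 to 1336 calls, 34 to 1202 of them higher in peritoneal cells, with 0.256% to 1.27% of genes higher in pleural cells. Chosen after seeing the data, an equal total outside the 20 most abundant genes gave 1335, 1136 and 1.89%. Without peritoneal library 4, the median-ratio scale gave 279, 168 and 1.05% and an equal total 468, 405 and 0.598%. The cause of these shifts was not tested. A fit with the replicate number as a block gave 226, 83 and 1.36%, with all 79 calls kept; under the block 4 of 13 MHC class II genes were called higher in pleural cells, H2-Aa and Cd74 among them (limma adjusted p = 0.00231 and 0.00271). Same-numbered libraries deviated together unevenly (correlations 0.26, 0.20, -0.42 and 0.45 for numbers 2 to 5), and libraries 2, 3 and 5 but not 4 correlated best with their own number. The labels do not say what the numbers mark. The main fit therefore did not pair samples, and whether the numbers pair them is not settled. Over the genes named, 1908 recomputed values kept their side of the threshold, 133 gained a call and 80 lost one. RPKM carries no count, so the depth behind a single low value is unknown.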
